A study of Mus musculus with 12 samples.

Results

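The hexosamine pathway enzymes *Gfpt1*, *Gfpt2*, *Gnpnat1*, *Pgm3* and *Uap1*, and *Ogt*, the enzyme that puts the product of the pathway onto proteins, were followed in mouse gastruloids. They were chosen by function, as 6 of the 38911 genes named in the count files, and their values are the counts of all RefSeq transcripts listed under each symbol. Gastruloids are aggregates of embryonic stem (ES) cells that form axial tissues in culture, and here they were made from E14TG2a, a single mouse ES cell line kept in 2i and LIF medium. All of them received CHIR99021, a Wnt pathway activator, on day 2, were treated from day 3 to day 4 and were collected on day 4. PolyA RNA was sequenced from 12 libraries, 3 per group, 1 from each of ES cell passages 13, 15 and 16. For each treatment and biological replicate, the study pooled gastruloids from 1 culture plate. Its methods describe treatments side by side in the same plate, so libraries of 1 passage may share a plate. The control group had 1X glucose (21.25 mM), the 2-DG group had 5 mM of the glucose analog 2-deoxy-D-glucose in 1X glucose, and the remaining groups had no glucose (0X) or 3X glucose (63.75 mM). The study dissolved 2-DG in PBS, and the labels of the 1X glucose libraries name no PBS.

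The hexosamine pathway takes a small share of the glucose that enters a cell and builds UDP-N-acetylglucosamine (UDP-GlcNAc). *Gfpt1* and *Gfpt2* encode the enzymes of the first committed step, which joins fructose-6-phosphate with the amino group of glutamine. *Gnpnat1* adds the acetyl group, *Pgm3* moves the phosphate and *Uap1* joins the sugar to UTP. UDP-GlcNAc then feeds *Ogt*, which marks serines and threonines of nuclear and cytoplasmic proteins, and the enzymes that start and branch N-glycans in the endoplasmic reticulum (ER) and Golgi.

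All 6 genes were well covered. Total counts per library were 31902471 to 45956080, and the members had between 645 counts (*Gfpt2*) and 14667 counts (*Ogt*) in a library. Levels are given as CPM (counts scaled to the total of the library), and differences as log2 fold changes of edgeR's quasi-likelihood fit to all 12 libraries, with p-values adjusted by the Benjamini-Hochberg method over the 16966 genes tested. A gene was called changed where its adjusted p was under 0.05. The p-values measure the spread between libraries of separate ES cell passages of 1 line. Since whole gastruloids were sequenced, fewer cells of a type and less RNA per cell cannot be told apart.

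With 2-DG, the pathway genes did not move as a block. *Gfpt1* and *Uap1* rose by about the same amount, *Pgm3* and *Ogt* rose by less, *Gnpnat1* fell and *Gfpt2* was not called. In 2-DG against 1X glucose, 4 of the 6 members were higher and 1 was lower. Of all genes tested, 17.6% were called in that comparison, 9.12% as higher and 8.51% as lower. The median log2 fold change of the 6 members was 0.24, beside 0.00 for all genes tested. The CPM of 5 members did not overlap between the groups, which held for 35.4% of all genes tested.

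**Figure D1:**
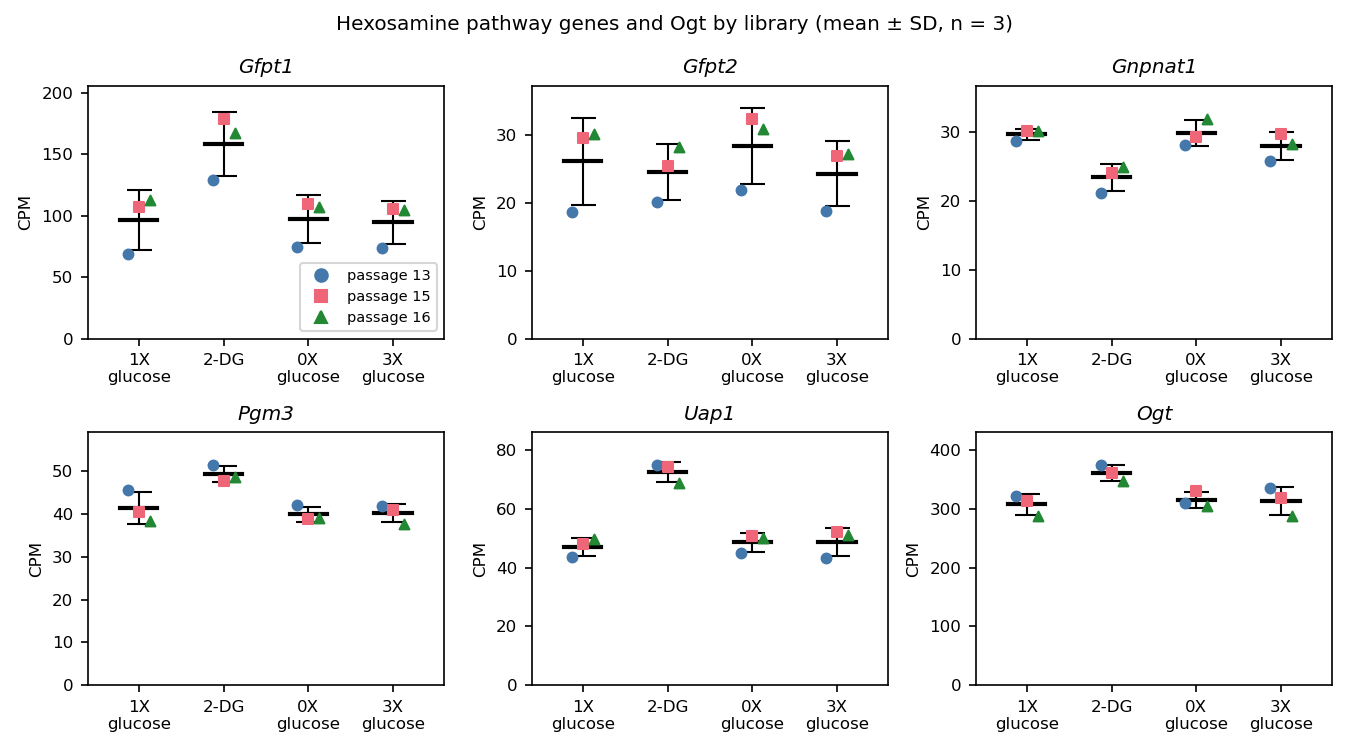
CPM of the 6 genes in each of the 12 libraries (vertical axes start at 0), by treatment. Points are libraries with colour and shape for the ES cell passage, horizontal lines are group means and bars are SDs (n = 3). The 2-DG libraries of *Gfpt1*, *Pgm3*, *Uap1* and *Ogt* lie above, and those of *Gnpnat1* below, all 1X glucose libraries, while those of *Gfpt2* overlap with them.

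*Gfpt1* (chr6:87042846-87092207, plus strand, GRCm38.p6) had 68.5, 108 and 113 CPM in the 1X glucose libraries of passages 13, 15 and 16 and 129, 179 and 168 CPM in the 2-DG libraries. All 2-DG libraries were above all 1X glucose libraries, although the passage 13 library was the lowest of each group. The log2 fold change was 0.72 ± 0.22 (SE, n = 3 per group), a 1.65-fold rise, with an adjusted p of 0.0466. Within passages 13, 15 and 16 the log2 difference was 0.92, 0.73 and 0.57. Its paralog *Gfpt2* (chr11:49794155-49838620, plus strand), which catalyses the same step, had 18.7, 29.5 and 30.1 CPM in 1X glucose and 20.1, 25.4 and 28.2 CPM with 2-DG. These libraries overlapped, and 1 of the 3 passages had more *Gfpt2* with 2-DG. The log2 fold change of *Gfpt2* was -0.09 with a 95% interval of -0.58 to 0.41 (adjusted p = 0.837). In this fit, which has no passage term, a moderate change in either direction could not be told from none. With the passage as a block the value was -0.07 and was not called either (adjusted p = 0.409).

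Because both genes encode the same activity, their counts were also set against each other within each library, which needs no scaling between libraries. There were 3.67, 3.65 and 3.76 *Gfpt1* counts per *Gfpt2* count in 1X glucose and 6.46, 7.05 and 5.95 with 2-DG. The means were 3.69 ± 0.06 and 6.49 ± 0.55 (SD, n = 3), and the groups did not overlap (two-sided exact permutation p = 0.1, the smallest that 3 against 3 libraries allow). The ratio was higher with 2-DG in each of the 3 passages, and the share of gene pairs with such a separation was not computed.

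*Gnpnat1* (chr14:45376421-45388987, minus strand) went the other way. It had 28.8, 30.1 and 30.2 CPM in 1X glucose and 21.2, 24.1 and 24.9 CPM with 2-DG. Every 2-DG library was below every 1X glucose library, and the log2 fold change was -0.34 ± 0.08 (SE, adjusted p = 0.0156). The gene lies tail to tail with *Styx* on the opposite strand, and 85.4% of the 50-base stretches of its main GENCODE M21 transcript also occur, reversed, in *Styx* transcripts of GENCODE M21. In the RefSeq positions the genes overlap from base 45376421 to base 45376884. *Styx* itself, which encodes a catalytically inactive phosphatase, was not called (log2 fold change 0.11, adjusted p = 0.426). The library kit keeps the strand, but whether the counting used it is not stated in the sources used here, so the *Gnpnat1* counts are uncertain to that extent. On its own strand, 9.09% of these stretches recur in a processed pseudogene, and 16.9% recur reversed in *Gm14698*, a protein-coding gene for which there are no counts here.

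*Pgm3* (chr9:86552476-86571878, minus strand) had 45.7, 40.4 and 38.4 CPM in 1X glucose and 51.4, 47.8 and 48.8 CPM with 2-DG. The lowest 2-DG library was just above the highest 1X glucose library. Its log2 fold change was 0.25 ± 0.07 (SE, adjusted p = 0.0386). Its 3′ end overlaps *Dop1a* on the opposite strand, which encodes a protein of membrane traffic and shares 37.4% of the 50-base stretches of the main *Pgm3* transcript. *Dop1a* had a log2 fold change of 0.17 (adjusted p = 0.147), and its part in the *Pgm3* counts was not tested.

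*Uap1* (chr1:170141223-170174964, minus strand), the last enzyme of the pathway, had the smallest adjusted p of the 6. It had 43.6, 48.0 and 49.6 CPM in 1X glucose and 74.8, 74.1 and 68.6 CPM with 2-DG. The groups were well apart, and the passage that was lowest in 1X glucose was highest with 2-DG. The log2 fold change was 0.62 ± 0.08 (SE), a 1.54-fold rise, with an adjusted p of 0.000938. *Ogt* (chrX:101640011-101684351, plus strand) had 322, 314 and 288 CPM in 1X glucose and 374, 361 and 348 CPM with 2-DG. Every 2-DG library was again above every 1X glucose library, by little in the closest pair. Its log2 fold change was 0.23 ± 0.06 (SE, adjusted p = 0.0340), a 1.17-fold rise.

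The *Uap1* call held under all 12 alternative fits and the *Gnpnat1* call under 10 of them, but the other 3 adjusted p-values lay close to the threshold in the main fit, which has no passage term. With the passage as a block in edgeR, they were 4.06e-06 (*Gfpt1*), 0.00118 (*Pgm3*) and 0.000957 (*Ogt*), where 41.3% of all genes tested were called. In DESeq2, which called 3686 genes, they were 0.00788, 0.0130 and 0.00744. Without the filter on low counts, or with only the 2-DG and 1X glucose libraries in the fit, 2 of the 6 members remained called (*Gnpnat1* and *Uap1*), and with each gene's most abundant transcript alone 2 did so (*Uap1* and *Ogt*). Leaving out 1X glucose replicate 1 left 4 calls, 1X glucose replicate 3 or 2-DG replicate 3 left 3, and 1X glucose replicate 2, 2-DG replicate 1 or 2-DG replicate 2 left 2. The calls over all genes fell too, from 2990 in the main fit to 2376 without the filter. They were 1896 with only these groups, 653 with the most abundant transcript alone and 1734 to 2352 without single libraries.

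**Figure D2:**
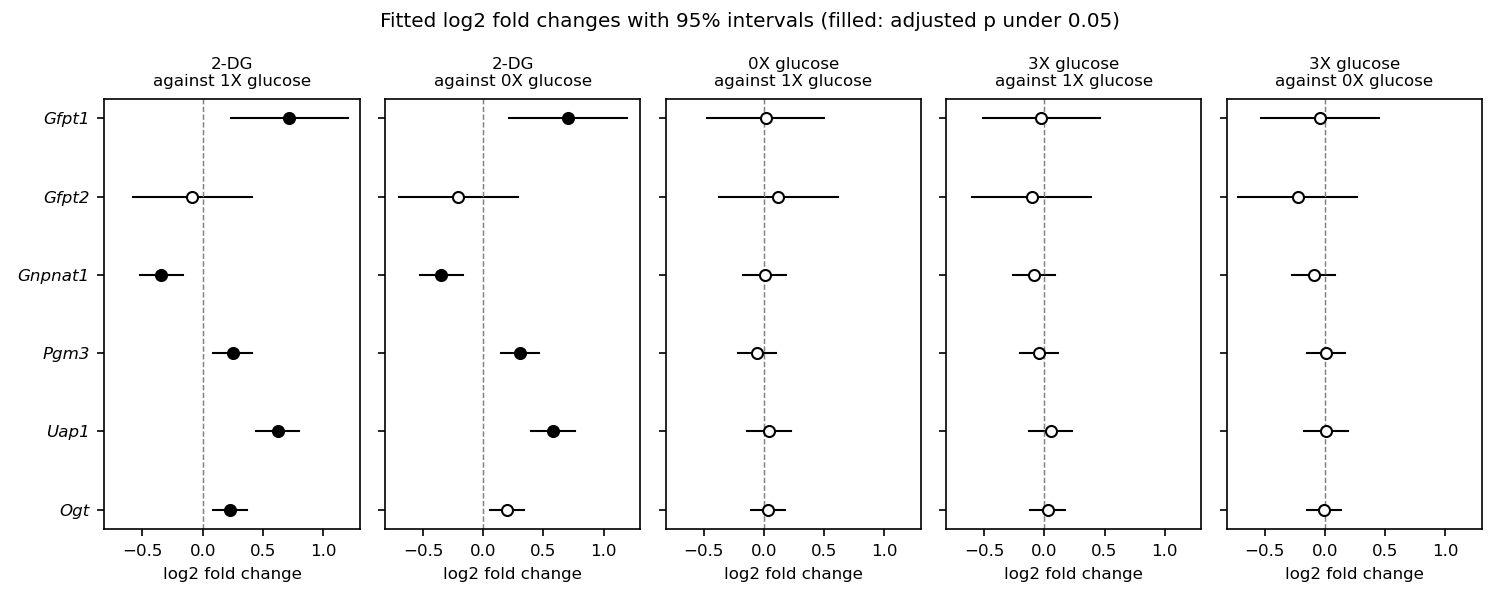
Fitted log2 fold changes (horizontal axis) of the 6 genes in 5 comparisons, with 95% intervals over 3 libraries per group. Filled points had an adjusted p under 0.05, and all 9 of them lie in the panels of 2-DG against 1X and against 0X glucose.

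Of 3 genes tied to the O-GlcNAc mark, 2 were lower with 2-DG (*Oga* and *Eogt*) and 0 were higher, where 8.51% of all genes tested were called lower. *Oga* encodes the enzyme that removes the mark *Ogt* sets. It had 301, 284 and 292 CPM in 1X glucose and 250, 244 and 266 CPM with 2-DG. The groups did not overlap, which held for 35.4% of all genes tested, and *Oga* fell by 0.21 on the log2 scale (SE 0.05, adjusted p = 0.0135). There were 1.07, 1.10 and 0.987 *Ogt* counts per *Oga* count in 1X glucose and 1.50, 1.48 and 1.31 with 2-DG. The ratio was higher in each of the 3 passages with 2-DG, 1.43 ± 0.10 against 1.05 ± 0.06 (SD, n = 3, exact permutation p = 0.1, the smallest possible). *Eogt*, the ER enzyme that puts O-GlcNAc on extracellular EGF repeats such as those of Notch receptors, had 98.0, 108 and 119 CPM in 1X glucose and 17.3, 26.3 and 35.2 CPM with 2-DG. It fell by 2.04 on the log2 scale (SE 0.21, adjusted p = 0.000219), the largest change among the 15 genes of the pathway and of the lists on O-GlcNAc removal and glucosamine recovery. *Hcfc1*, a chromatin protein that *Ogt* modifies and cleaves, was at 504 and 478 CPM on average and was not called (log2 fold change 0.08, adjusted p = 0.766).

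**Figure D3:**
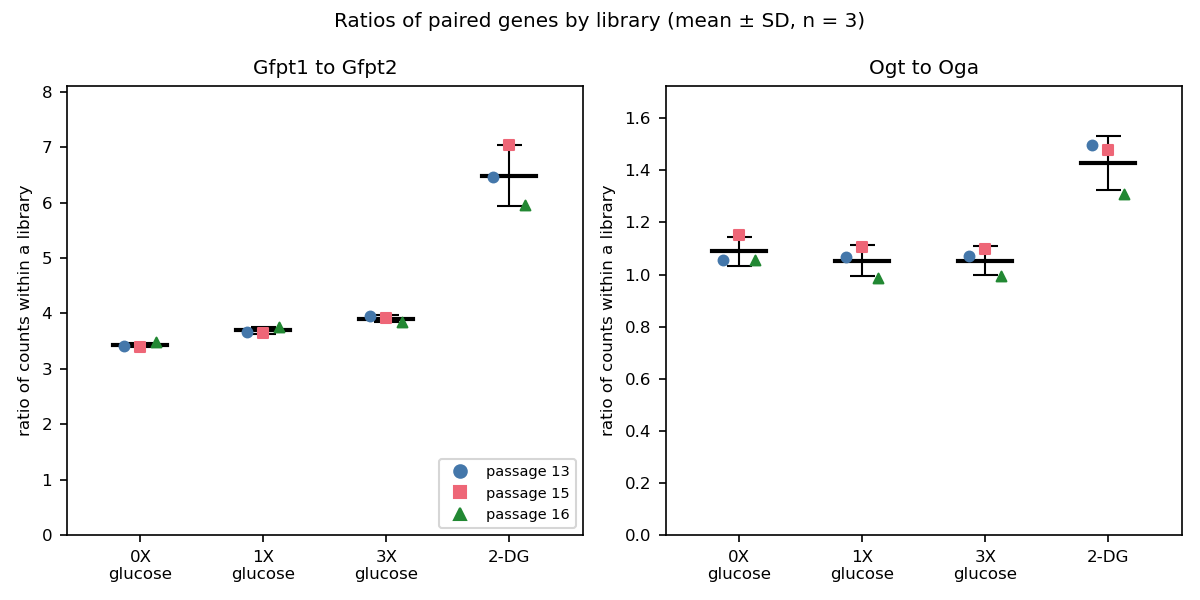
Counts of *Gfpt1* per count of *Gfpt2* (left) and of *Ogt* per count of *Oga* (right) in each library, by treatment, with means and SDs (n = 3) and axes from 0. The 2-DG libraries stand above all others in both panels, and on the left the 0X, 1X and 3X glucose libraries form 3 narrow, separate steps from 3.43 to 3.69 to 3.91.

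A list of 6 genes on the recovery of glucosamine or its return to glycolysis also held *Uap1l1*, a paralog of the synthesis gene *Uap1*. Of these 6, 2 were higher with 2-DG and none was lower, with a median log2 fold change of 0.12, where 17.6% of all genes tested were called. *Renbp*, which encodes an epimerase of N-acetylglucosamine, had 22.2, 20.9 and 21.3 CPM in 1X glucose and 40.0, 33.5 and 33.4 CPM with 2-DG, a log2 fold change of 0.73 ± 0.08 (SE, adjusted p = 0.000389). *Uap1l1* had 44.8, 36.4 and 43.6 CPM in 1X glucose and 61.0, 53.7 and 54.3 CPM with 2-DG, and rose by 0.44 ± 0.11 (SE, adjusted p = 0.0250). In both genes all 2-DG libraries exceeded all 1X glucose libraries. For *Uap1l1* this holds for the counts summed over 6 listed transcripts. Its 1 protein-coding transcript had 41.5, 34.1 and 38.5 CPM in 1X glucose and 43.8, 42.3 and 39.3 CPM with 2-DG, which overlapped, and its share of the counts was 88.3% to 93.5% in 1X glucose and 71.9% to 78.8% with 2-DG, the rest being given to non-coding transcripts. *Gnpda1*, whose enzyme runs the first step of the pathway backwards, had a log2 fold change of 0.16 (adjusted p = 0.455, and 0.0120 with the passage as a block, where it was higher in 3 of 3 passages). *Gnpda2*, its paralog, the deacetylase gene *Amdhd2* and the N-acetylglucosamine kinase gene *Nagk* had log2 fold changes between -0.07 and 0.08 and were not called.

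Further downstream, a list of 29 genes held users and transporters of UDP-GlcNAc. It also held genes of later steps of sialic acid synthesis, among them *Nans*, which do not use UDP-GlcNAc. Of these 29 genes, 5 were higher with 2-DG and none was lower, a share near the 17.6% of all genes called in this comparison. Their median log2 fold change was 0.06, and DESeq2 called 9 of them. With the passage as a block, where 41.3% of all genes tested were called, 10 were higher and 8 lower. The 5 were *Dpagt1*, which starts the lipid-linked precursor of N-glycans, *Mgat2* and *Mgat5*, which branch N-glycans, *Piga* of GPI anchor synthesis and *Nans* of sialic acid synthesis. *Mgat5* had the largest log2 fold change of these (0.40 ± 0.07, SE, adjusted p = 0.00327). At the ends of the list stood *Mfng*, a Fringe enzyme acting on Notch, with 0.46 (adjusted p = 0.651), *Slc35d2*, a sugar nucleotide transporter, with -0.81 (adjusted p = 0.0899), and *Has3*, a hyaluronan synthase, with -0.50 (adjusted p = 0.409), none of them called.

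On the supply side, 1 of 9 genes of hexose uptake and phosphorylation was called, where 17.6% of all genes tested were. It was *Hk2*, a hexokinase, which fell by 0.38 (SE 0.07, adjusted p = 0.00584). The glucose transporter gene *Slc2a1* and the phosphofructokinase gene *Pfkp*, at the top of this list, had 0.49 (adjusted p = 0.401) and 0.32 (adjusted p = 0.764), and *Pfkm* had -0.11 (adjusted p = 0.227). Blocking for the passage gave 3 higher genes and 2 lower genes in this list, where 41.3% of all genes tested were called. Among 10 genes of glutamine, acetyl-CoA and UTP supply, 2 were higher, among them the glutamine transporter gene *Slc1a5* (0.74 ± 0.15, SE, adjusted p = 0.00736), and 2 were lower, the pyrimidine synthesis gene *Umps* (-0.33 ± 0.07, adjusted p = 0.00969) and the nucleotide kinase gene *Nme1* (-0.25 ± 0.05, adjusted p = 0.00917). With the block, 4 were higher and 2 lower.

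Spliced Xbp1, a transcription factor of the unfolded protein response, is known to act on hexosamine genes in other tissues, and 2-DG is known to disturb N-glycosylation, so targets of the ER stress response were set beside the members. All 16 genes of a list of Xbp1 and ATF6 targets were higher with 2-DG, with a median log2 fold change of 1.18. They ranged from *Edem1*, an ER degradation factor (0.65 ± 0.17, SE, adjusted p = 0.0242), and *Sel1l* (0.78 ± 0.10) to *Herpud1* (1.76 ± 0.13) and *Sdf2l1*, an ER chaperone partner (2.01 ± 0.15, adjusted p = 5.46e-05). The value of *Gfpt1* lay between those of *Edem1* and *Sel1l*, and that of *Uap1* was below the lowest of the list. The list's summed level was 2669 to 2845 CPM in the 1X glucose libraries and 5361 to 6619 CPM in the 2-DG libraries, and its part in the members' change was not tested. Of 14 ATF4 targets, the amino acid and stress arm of the same response, 11 were higher and none was lower, with a median log2 fold change of 0.58. *Chac1*, which degrades glutathione, and *Nupr1*, a stress-induced chromatin protein, had the highest fitted values (2.91 ± 0.73 and 2.75 ± 0.83, SE, adjusted p = 0.0217 and 0.0448), although *Nupr1* had a mean of only 0.592 CPM with 2-DG. *Ddit4* (-0.06) and *Slc7a11* (0.17) were the lowest and were not called.

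**Figure D4:**
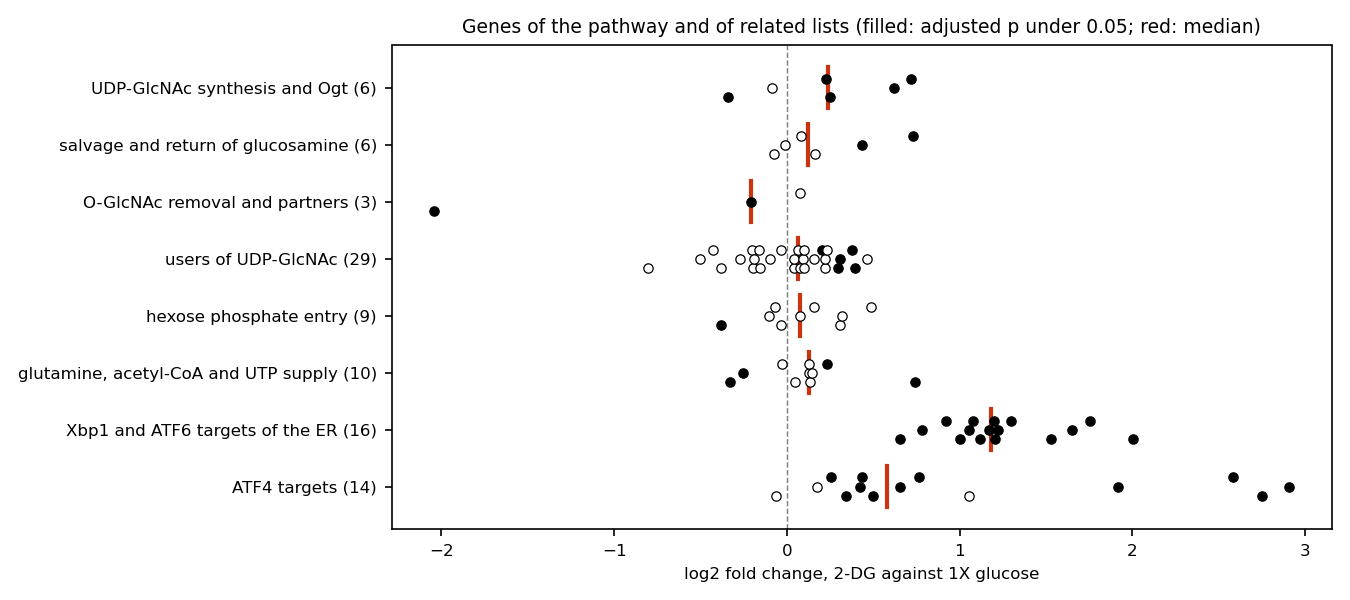
Log2 fold changes in 2-DG against 1X glucose (horizontal axis) of the 6 genes and of 7 related lists, with 1 point per gene, filled where the adjusted p was under 0.05, and the median of each list in red. The number of genes tested is given beside each list. The medians of the Xbp1 and ATF6 list (1.18) and of the ATF4 list (0.58) lie to the right of that of the 6 genes (0.24), while single genes overlap.

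Short motifs of these factors were then looked for in the promoters of the members, with the motifs chosen after the sequences could be seen. RefSeq promoter sequences of GRCm38.p6 (250 bases before to 50 after a start site) were at hand for 5 of the 6 members, and not for *Gnpnat1*. The Xbp1 core GCCACGT occurred, on either strand, in 2.58% of 32851 promoters and in those of *Gfpt1* and *Pgm3*. The unfolded protein response element TGACGTG occurred in 2.01% of all promoters and in that of *Uap1*, and both motifs hold the letters ACGT. The 30 bases around each match are shown because they are the letters that *Gfpt1*, *Pgm3* and *Uap1* have in these windows, with the match in capitals, on the strand of the gene.
Gfpt1, chr6:87042711-87042740, match from 124 bases before the start site: gtcgagcccctGCCACGTcgctacccgcag
Pgm3, chr9:86571802-86571831, match from base 23 after the start site, inside the annotated gene: agcaaagctggGCCACGTctgcgaggtctg
Uap1, chr1:170174945-170174974, match from base 2 after the start site, inside the annotated gene: ttctcggtcgcTGACGTGtcgggccggcag
The wider upstream sequence of *Gfpt1*, chr6:87042596-87042845 on the plus strand, shows the setting of the only match that lies before a start site.
Gfpt1 upstream: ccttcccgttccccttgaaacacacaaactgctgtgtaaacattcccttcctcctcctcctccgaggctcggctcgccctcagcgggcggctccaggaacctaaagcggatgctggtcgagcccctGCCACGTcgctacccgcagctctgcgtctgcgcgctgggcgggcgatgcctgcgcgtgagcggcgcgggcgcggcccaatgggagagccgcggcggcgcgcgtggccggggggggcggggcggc
None of the letters searched occurred in the windows of *Gfpt2* and *Ogt*. The other motifs searched, the ER stress response elements (CCAAT and CCACG with any 9 bases between, and ATTGG and CCACG with any 1 base between), the ATF4 composite site TGATGNAAN and the E-box CACGTG, occurred in 0.119%, 0.0365%, 3.95% and 7.15% of all promoters and in none of these 5 members. The same search for *Oga*, *Eogt*, *Renbp* and *Uap1l1* returned no match, although *Renbp* and *Uap1l1* were also higher with 2-DG. Whether promoter sequences of these further genes were at hand was not recorded. A match of so few letters is a description of the window and does not show that a factor binds there.

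The *Uap1* counts came from several transcripts, and these differ in a short piece of the coding sequence. Of its 6 listed transcripts, 3 held nearly all counts, with coding lengths of 1566, 1563 and 1515 bases in GENCODE M21. The longest carries 51 bases at chr1:170147996-170148046 (GRCm38, minus strand), which add 17 residues in frame, the middle one carries the last 48 of them and the shortest lacks the exon. The stretch is shown with the 3 bases that only the longest transcript has in capitals.
Uap1 exon of 51 bases: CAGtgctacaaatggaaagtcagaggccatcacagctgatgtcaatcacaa
Uap1 exon of 48 bases: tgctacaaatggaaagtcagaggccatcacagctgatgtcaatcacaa
The transcript with 51 bases took 36.7%, 34.7% and 51.9% of the *Uap1* counts in 1X glucose and 56.6%, 52.2% and 53.4% with 2-DG. In 0X glucose it took 38.0%, 37.4% and 37.3%, and in 3X glucose 33.5%, 39.8% and 41.5%. The 2-DG libraries had the highest shares of all 12, by a narrow margin over the passage 16 library in 1X glucose. In CPM this transcript was at 42.3, 38.7 and 36.6 with 2-DG and at 14.5 to 25.8 in the other 9 libraries, while the transcript without the exon was at 13.4 ± 3.6 CPM with 2-DG and 12.1 ± 2.6 CPM in 1X glucose (SD, n = 3). These shares are StringTie's apportioning of reads between overlapping transcripts and were not tested.

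**Figure D5:**
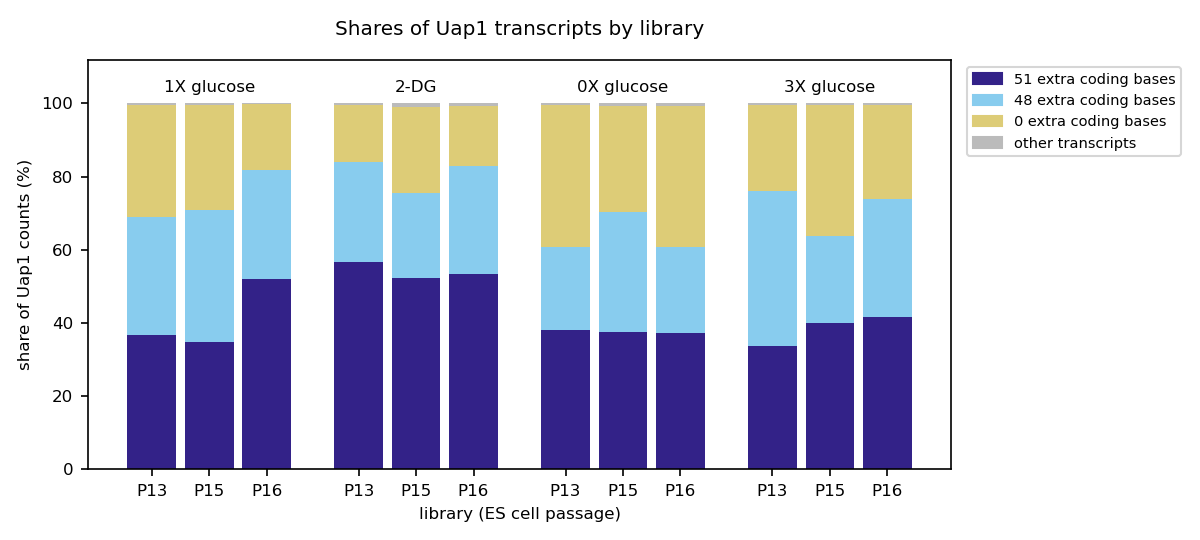
Share of *Uap1* counts (percent, vertical axis) of the transcripts with 51, 48 or no extra coding bases in each of the 12 libraries, by treatment and ES cell passage. The dark part, the transcript with 51 bases, is over 52% in each 2-DG library and under 52% in each other library.

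The other members gave less reason to split the gene. *Gfpt1* and *Gfpt2* are listed with 1 transcript each. The main *Ogt* transcript held 86.3% to 87.4% of the counts of the gene with 2-DG and 80.4% to 85.6% in the other libraries. The main *Pgm3* transcript held 99.4% to 99.9% with 2-DG and 77.1% to 96.8% in 1X glucose, but 25.2% in 3X glucose replicate 2, where a non-coding transcript was given 57.4%. *Gnpnat1* was split among 4 transcripts in shares that differed between libraries of the same group, with 47.2% to 74.4% for the main one in 1X glucose, and summed counts are used throughout.

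Per kilobase of the main transcript, the order of the levels was *Ogt* (57.2 CPM per kb in 1X glucose), *Uap1* (20.6), *Pgm3* (15.6), *Gfpt1* (15.4), *Gnpnat1* (10.7) and *Gfpt2* (8.85). Neighbours in this order did not overlap between their libraries, except *Pgm3* and *Gfpt1*. With 2-DG, *Gfpt1* (25.4 CPM per kb) stood above *Pgm3* (18.5) without overlap, and *Gnpnat1* (8.40) and *Gfpt2* (8.32) overlapped at the bottom. The 1X glucose order of *Pgm3* before *Gfpt1* was turned in 0X and 3X glucose, with overlap in both.

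Against 0X glucose, 2-DG gave similar values, and both comparisons share the 2-DG libraries. Here 3 members were higher and 1 was lower, where 18.9% of all genes tested were called, 9.86% higher and 9.04% lower. *Gfpt1* rose by 0.71 ± 0.22 (SE, adjusted p = 0.0482), *Uap1* by 0.58 ± 0.08 (adjusted p = 0.00124) and *Pgm3* by 0.30 ± 0.07 (adjusted p = 0.0157), and *Gnpnat1* fell by 0.35 ± 0.08 (adjusted p = 0.0135). *Ogt*, with a log2 fold change of 0.20 ± 0.06, missed the threshold in edgeR (adjusted p = 0.0564) but not in DESeq2 (0.19, adjusted p = 0.0267, 5 members called), and its 0X glucose libraries (310, 330 and 305 CPM) were all below its 2-DG libraries, a separation that 37.9% of all genes tested had. *Gfpt2* had a log2 fold change of -0.21 (adjusted p = 0.569). With the passage as a block all 6 members were called, *Ogt* at an adjusted p of 0.00233 and *Gfpt2*, lower in 3 of 3 passages, at 0.0265, where 43.1% of all genes were. With the most abundant transcript alone 1 member was called, and leaving out 0X glucose replicate 3 left 1 call, 0X glucose replicate 2 left 2 and each of the other libraries left 3. Over all genes, the calls fell from 3207 to 775 with that transcript alone and to 2051 to 2619 without single libraries. *Dop1a*, the neighbour of *Pgm3*, was higher in this comparison (log2 fold change 0.24, adjusted p = 0.0487).

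Removing glucose or tripling it for 1 day moved none of the 6 genes past the threshold. In 0X against 1X glucose 0 of 6 members were called by edgeR, 0 had an unadjusted p under 0.05 and 0 were called by DESeq2, where 0.0118% of all genes tested were called by edgeR. The same counts of 0 held for 3X against 1X glucose, where 0% of all genes were called, and for 3X against 0X glucose, where 0.0118% were. In 0X against 1X glucose the log2 fold changes lay between -0.06 (*Pgm3*) and 0.12 (*Gfpt2*). Without a passage term, their 95% intervals were narrow for *Ogt* (-0.11 to 0.17), *Uap1* (-0.14 to 0.23) and *Gnpnat1* (-0.17 to 0.18), and wide for *Gfpt1* (-0.47 to 0.50) and *Gfpt2* (-0.37 to 0.61). With the passage as a block, *Gfpt1* had 0.02 (adjusted p = 0.914) and *Gfpt2* had 0.13 (adjusted p = 0.544). In 3X against 1X glucose the log2 fold changes without a passage term lay between -0.10 (*Gfpt2*) and 0.05 (*Uap1*), with an interval of -0.12 to 0.17 for *Ogt* and of -0.51 to 0.46 for *Gfpt1*.

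Within these glucose doses the levels of each member overlapped in all 3 pairs of doses (5.63%, 4.47% and 9.01% of all genes tested did not overlap in 0X against 1X, 3X against 1X and 3X against 0X glucose). The ratio of both first-step genes, a different measure to which these shares do not apply, did not overlap. There were 3.41, 3.40 and 3.48 *Gfpt1* counts per *Gfpt2* count in 0X glucose, 3.67, 3.65 and 3.76 in 1X and 3.96, 3.92 and 3.84 in 3X. In each passage the ratio was lowest in 0X and highest in 3X glucose, and no library of one dose reached into another (exact permutation p = 0.1 for each of the 3 pairs of doses, the smallest possible). Both genes differed alike between passages (*Gfpt1* 1.46 and 1.44 times, *Gfpt2* 1.43 and 1.47 times passage 13 in passages 15 and 16). Their ratio takes this difference out. The share of gene pairs with such steps was not computed. *Gfpt2* had 21.9, 32.3 and 30.8 CPM in 0X and 18.7, 26.9 and 27.2 CPM in 3X glucose. It was lower in 3X glucose in 3 of 3 passages, by a fitted log2 difference of -0.23 that passed the threshold neither without the block (95% interval -0.72 to 0.27) nor with it (adjusted p = 0.127). *Gfpt1* differed by -0.04 between the same groups. The *Ogt* to *Oga* ratio showed no such steps, at 1.09 ± 0.06 in 0X, 1.05 ± 0.06 in 1X and 1.05 ± 0.05 in 3X glucose (SD, n = 3, exact permutation p of at least 0.6).

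Of the 6 genes in the list on glucosamine recovery, *Uap1l1*, *Renbp* and *Amdhd2* fell in order from 0X to 1X to 3X glucose in 3 of 3 passages. The share of all genes with such an order was not computed. In 3X against 0X glucose edgeR called 0 of the 6, with an unadjusted p under 0.05 for 2, and DESeq2 called 1, *Uap1l1* (adjusted p = 0.0329). *Uap1l1* had 54.0, 43.4 and 47.6 CPM in 0X, 44.8, 36.4 and 43.6 CPM in 1X and 36.3, 29.7 and 37.1 CPM in 3X glucose. The 0X and 3X glucose groups did not overlap, which held for 9.01% of all genes tested, and the log2 difference of 3X against 0X was -0.49 with an adjusted p of 0.740, and of 0.00928 with the passage as a block, where 0.802% of genes were called. The protein-coding transcript alone had 28.5, 40.7 and 34.5 CPM in 0X and 14.97, 29.7 and 25.8 CPM in 3X glucose, which overlapped, and its share of the counts ran from 41.2% to 100% between the 3X glucose libraries. *Renbp* had 22.9, 24.3 and 25.3 CPM in 0X, 22.2, 20.9 and 21.3 CPM in 1X and 18.6, 18.7 and 20.2 CPM in 3X glucose, and 3X against 0X gave -0.34 (adjusted p = 0.800, and 0.0780 with the block). *Amdhd2* had 11.01, 13.3 and 14.5 CPM in 0X, 10.8, 12.5 and 13.4 CPM in 1X and 10.4, 10.4 and 12.7 CPM in 3X glucose, which overlapped, with a log2 difference of -0.21 (95% interval -0.50 to 0.07) that was not called with the block either (adjusted p = 0.233).

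Outside the 2-DG group, the largest differences of the first-step genes were those between ES cell passages. Each passage is also a single replicate, so the passage and other differences between replicates cannot be told apart. Between passages, tested beside the group over all 12 libraries, 5 of 6 members were called, but so were 46.2% of all genes tested. *Gfpt1* was lowest in passage 13 in each of the 4 groups, and was 1.46 times as high in passage 15 and 1.44 times as high in passage 16 (adjusted p = 1.34e-05). *Gfpt2* followed it, with 18.7 to 21.9 CPM in the 4 libraries of passage 13, 25.4 to 32.3 CPM in passage 15 and 27.2 to 30.8 CPM in passage 16 (adjusted p = 5.28e-05). Passage 13 of *Gfpt2* did not overlap with either later passage, whatever the treatment. *Gnpnat1* was lowest in passage 13 (1.09 and 1.11 times higher in passages 15 and 16, adjusted p = 0.0414), *Pgm3* highest in passage 13 (0.93 and 0.90 times, adjusted p = 0.0227) and *Ogt* lowest in passage 16 (0.92 times passage 13, adjusted p = 0.0193), each in 4 of 4 groups. *Uap1* was not called (adjusted p = 0.104), and neither was *Oga* (adjusted p = 0.250). Leaving out single libraries left 2 to 5 of these calls, with 2 left without 1X glucose replicate 1, 1X glucose replicate 3 or 3X glucose replicate 3 and 3 without 0X glucose replicate 1. The most abundant transcript alone left 2.

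Over the 12 libraries, the genes whose log2 CPM ran most like that of each member were named by Pearson's r, as a description of libraries that share treatments and passages. For *Gfpt1* these were *Luc7l2* (r = 0.990), *Osbp* (0.989) and *Edem1* (0.987), and for *Uap1* they were *Chd2* (0.993), *Kidins220* (0.991) and *Copa* (0.989). *Gfpt2* ran with *9430024E24Rik* (0.984), *Rbms1* (0.983) and *Cnmd* (0.983), *Gnpnat1* with *Cbx3* (0.972), *Atg10* (0.971) and *Ints8* (0.970), *Pgm3* with *4930447C04Rik* (0.975), *Fam184a* (0.966) and *Btbd1* (0.962), and *Ogt* with *Wsb1* (0.982), *Gbe1* (0.970) and *Ttc14* (0.956). No member was among the nearest 3 genes of another member.

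The cells of the 2-DG libraries also differed in the markers of their types. Against 1X glucose 9.12% of all genes tested were called higher and 8.51% lower, and 41.3% were called with the passage as a block. Of 11 markers of primitive streak and presomitic mesoderm, 5 were lower with 2-DG, with *Mixl1* (-3.89, adjusted p = 0.000320) and *Wnt3a* (-2.72, adjusted p = 0.00634) the lowest, and *Mesp1* (0.36) and *Fgf8* (0.01) the highest and not called. Their summed level was 1530 to 1669 CPM in 1X glucose and 871 to 1297 CPM with 2-DG. Of 8 neural markers tested among 10 listed, 3 were higher, including *Irx3* (1.90, adjusted p = 0.00492) and *Sox1* (1.84, adjusted p = 0.0185), and *Nkx6-1* was lower (-1.43, adjusted p = 0.00516), next to *Olig2* (-1.47), which was not called. The neural sum was 73.2 to 111 CPM in 1X glucose and 117 to 217 CPM with 2-DG. Of 5 pluripotency markers tested 0 were called by edgeR or by DESeq2 (3 had an unadjusted p under 0.05, and 3 were higher with the passage as a block), and their sum was 35.0 to 48.5 CPM in 1X glucose and 53.6 to 65.9 CPM with 2-DG, although the labels name the cell type as embryonic stem cells. Of 5 fibroblast markers tested, which feeder cells would carry, 0 were called by either tool (1 had an unadjusted p under 0.05, and 1 was higher and 2 lower with the block), and their sum was 11.3 to 15.1 CPM in 1X glucose and 10.7 to 14.5 CPM with 2-DG. In 0X or 3X against 1X glucose 0 genes of any of these 4 lists were called by either tool, with at most 2 genes of a list at an unadjusted p under 0.05. The part of the cell types in the members' changes was not tested.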

How the data were processed

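PolyA RNA of 12 libraries was counted by the authors per RefSeq transcript. The authors deposited estimated counts as whole numbers (StringTie after Trim Galore, HISAT2 and removal of duplicates with Picard). Per the labels the build is mm10, and versions are not given in the sources used here. Tables of the authors' fold changes and p-values from DESeq2 were not used.

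The counts of 120312 transcripts were summed to 38911 genes with the RefSeq table of GRCm38.p6, and no rounding was needed. R 4.3.3 with edgeR 4.0.16 was used (filterByExpr, TMM factors, glmQLFit and glmQLFTest, 4 groups in 1 fit without a passage term, two-sided, Benjamini-Hochberg threshold 0.05). Standard errors came from the F statistic. Exact permutation tests used SciPy 1.17.1. The alternatives were no filter, median-of-ratios factors, the passage as a block, only the groups compared, DESeq2 1.42.0, the most abundant transcript alone and leaving out each library.

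The labels give each replicate number an ES cell passage, which pairs the libraries of different groups. Deviations from group means correlated at 0.0963 to 0.623 across genes in 18 pairs of libraries of 1 passage (median 0.304). In 36 pairs of different passage and group they correlated at no more than 0.191 (median -0.219). Deviations within a group sum to 0, so the values of both kinds of pairs are not independent.

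The fits were tested on simulated data.

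The members and lists were chosen with earlier results of these data known. All members, and all genes of the lists on glucosamine recovery and on O-GlcNAc removal, were named. Of each other list, the 2 highest and 2 lowest log2 fold changes in 2-DG against 1X glucose were. The further genes called in the UDP-GlcNAc and supply lists, and neighbours on the opposite strand, were named after their values were seen. Shared stretches of 50 bases and coding lengths were read from GENCODE M21. A gene of the lists that the rule names is not reported here.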

Additional observations from a re-analysis of the deposited data

How the results depend on the processing

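The count of members called in 2-DG against 1X glucose was 5 and became 2 with no filter on low counts, with only the groups compared and with the most abundant transcript alone, and 2 to 4 without single libraries. The calls over all genes went from 2990 to 2376, 1896 and 653 in these fits, and to 1734 to 2352 without single libraries. In 2-DG against 0X glucose the count of members was 4 and became 1 with the most abundant transcript alone and 1 to 3 without single libraries. There the calls over all genes went from 3207 to 775 and to 2051 to 2619. Between passages the count of members was 5, became 2 with the most abundant transcript alone and was 2 to 5 without single libraries. Blocking for the passage, used as a replicate block, changed the calls of *Ogt* and *Gfpt2* in 2-DG against 0X glucose (6 members called) and no other call of a member, and DESeq2 changed that of *Ogt* (5 called). Of 360 values of single members under alternatives, 279 kept direction and side of the threshold, 36 lost the call, 3 gained it and 42 changed sign, the last only in values that had not passed the threshold. The causes were not tested. Between glucose doses *Gfpt1* and *Gfpt2* had the widest 95% intervals of the members in the fit without the block, and differences within those intervals could not be told from none there.

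The values that changed sign were as follows. Without the filter, 0X against 1X glucose gave -0.0071 for *Gfpt1* and -0.017 for *Gnpnat1*, and 3X against 0X glucose gave 0.00053 for *Ogt*. With the most abundant transcript alone, 0X against 1X glucose gave -0.023 for *Gnpnat1*, 0.13 for *Pgm3* and -0.099 for *Uap1*, 3X against 1X glucose gave -0.055 for *Uap1*, and 3X against 0X glucose gave -0.62 for *Pgm3*, where 3X glucose replicate 2 has few counts of that transcript. Without single libraries, *Gfpt2* in 2-DG against 1X glucose ran from -0.28 to 0.038. In 0X against 1X glucose the ranges were -0.18 to 0.17 for *Gfpt1*, -0.072 to 0.27 for *Gfpt2*, -0.048 to 0.039 for *Gnpnat1*, -0.11 to 0.019 for *Pgm3*, -0.0088 to 0.092 for *Uap1* and -0.017 to 0.064 for *Ogt*. In 3X against 1X glucose they were -0.22 to 0.12 for *Gfpt1*, -0.29 to 0.049 for *Gfpt2*, -0.10 to 0.030 for *Pgm3*, -0.00080 to 0.13 for *Uap1* and -0.027 to 0.082 for *Ogt*. In 3X against 0X glucose they were -0.19 to 0.11 for *Gfpt1*, -0.019 to 0.054 for *Pgm3*, -0.042 to 0.087 for *Uap1* and -0.053 to 0.055 for *Ogt*. The log2 ratio of *Ogt* to *Oga* in 3X against 1X glucose ran from -0.046 to 0.042.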
